A study of Mus musculus with 21 samples.

Results

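The apolipoprotein L genes are described here by 7 members of the mouse family, Apol6, Apol7c, Apol7e, Apol8, Apol9a, Apol9b and Apol10b, among the 55487 gene rows of each table. The 7 genes were given by name and were found under their symbols in both tissues. They had been chosen on expression values of these same libraries, which values exactly was not recorded, so the differences between groups below describe these genes and are not independent support for any of them. Apolipoprotein L proteins are mostly intracellular, bind lipids and act at membranes. Apol9a and Apol9b, a pair of close copies, are antiviral genes induced by interferon in the mouse. The product of Apol7c is known from dendritic cells, where it acts on the membrane of the phagosome, and human APOL6 is known as an inducer of cell death.

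RNA was measured by poly-A sequencing in skin and inguinal lymph nodes of BALB/c wild-type (WT) mice and of Ifnk TG mice. The transgene places Ifnk, a type I interferon of keratinocytes, under the K14 promoter of basal keratinocytes, and the line was backcrossed to BALB/c. Skin came from mice of 12 months that received no treatment, with 3 WT, 2 nonlesional (NL) TG and 4 lesional (L) TG libraries, and whether NL and L samples shared a mouse is not given. Lymph nodes came from untreated WT and TG mice and from WT and TG mice exposed to UVB at 250 mJ/cm2 on 3 days a week for 2 weeks and observed for 2 further weeks, with 3 libraries in each of the 4 groups. The labels give no age for the mice of the nodes and no sex for any library. They do not say how the samples of a group were kept apart, so the p-values measure the spread between these libraries only.

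Libraries held 40499078 to 56511276 counts in skin and 27599809 to 36428435 in nodes. Levels are CPM, counts scaled to a common library total with TMM factors, and 3 counts, the smallest number read as a level, corresponded to 0.0540 to 0.0742 CPM in skin and 0.0810 to 0.109 CPM in nodes. Of the markers that define the tissues, Krt5, a basal keratin, stood at 1773 to 4478 CPM in skin and had at most 2 counts in any node, and Cd3e, a component of the T cell receptor complex, stood at 281 to 359 CPM in nodes. Ifnk itself had 0 counts in the 3 WT skin libraries and in all 12 node libraries, 6 and 0 in NL and 5 to 14 in L skin. In bulk tissue, fewer cells of a type and less RNA per cell cannot be told apart. L skin also stood apart in tissue content. The mean log2 CPM of 8 hair shaft genes was 7.45 to 9.09 in the L libraries and -3.97 to -2.75 in the others, and that of 6 skeletal muscle genes was 1.84 to 9.93 against 11.7 to 12.3. The study took lesional skin wherever lesions occurred, and nonlesional skin from the back and from areas comparable to those of lesions. The sample titles name no body site, so site and lesion cannot be told apart in the comparisons with L skin.

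All 7 members are protein-coding genes of chromosome 15 (GRCm38, GENCODE M21). Between Apol6 at 77044729 to 77057106 and Apol8 at 77747798 to 77757003 the family spans 712 kb, and all members but Apol6 lie in the last 369 kb, which begins 331 kb beyond Apol6. Apol9a (77403789 to 77411135, minus strand) and Apol9b (77729039 to 77736382, plus strand) flank 3 of the members, with Apol7c (77524852 to 77533316), Apol10b (77583819 to 77596125) and Apol7e (77698857 to 77719285) in between. Apol6 overlaps Mb, the myoglobin gene on the opposite strand, over 5942 bases that hold 64 shared exon bases.

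The bases just before the transcription start are shown because 4 of the members carry a repeated element there that 2 others do not. The element is the core of the interferon-stimulated response element, GAAA, any pair of bases, GAAA, searched on both strands of the 250 bases before each start in the RefSeq promoter table (GRCm38.p6). Capitals mark matches, read here from the strand of the gene, and each line runs from base 100 to base 21 before the first start listed for the gene. Apol9a and Apol9b have a second listed start, whose 250 bases hold the same number of matches.

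Apol9a: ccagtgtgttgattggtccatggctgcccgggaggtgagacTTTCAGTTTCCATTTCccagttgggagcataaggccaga

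Apol9b: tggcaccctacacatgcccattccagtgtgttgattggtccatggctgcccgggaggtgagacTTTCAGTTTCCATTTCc

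Apol7c: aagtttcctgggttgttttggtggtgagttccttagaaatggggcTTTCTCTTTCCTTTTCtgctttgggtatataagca

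Apol7e: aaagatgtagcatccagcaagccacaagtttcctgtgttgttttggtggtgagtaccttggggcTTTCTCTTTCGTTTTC

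Apol7b: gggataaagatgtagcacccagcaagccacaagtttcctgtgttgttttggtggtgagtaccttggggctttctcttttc

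Apol10b: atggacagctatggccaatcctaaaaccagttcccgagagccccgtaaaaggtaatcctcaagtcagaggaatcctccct

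Apol8: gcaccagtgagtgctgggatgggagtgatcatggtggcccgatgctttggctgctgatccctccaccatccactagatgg

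The windows lie at chr15:77411101-77411180 (Apol9a, minus), chr15:77728972-77729051 (Apol9b, plus), chr15:77533336-77533415 (Apol7c, minus), chr15:77698789-77698868 (Apol7e, plus), chr15:77447481-77447560 (Apol7b, minus), chr15:77596146-77596225 (Apol10b, minus) and chr15:77757031-77757110 (Apol8, minus). Apol9a, Apol9b, Apol7c and Apol7e each held 2 overlapping matches, a pattern of 2 or more cores that 0.18% of the 32851 promoters of the table hold. A single core or more was present in 2.98% of all promoters. Counted by gene, it was present in 11 of the 22 genes found in the table from a list of 32 type I interferon-stimulated genes. Apol10b and Apol8 held none in the 250 bases, nor did Apol7b, the close copy of Apol7e that is no member. The gamma-activated site, TTC, any 3 bases, GAA, was present in 7.02% of all promoters and in none of the 6 members of the table. Apol6 was not matched in the table. A match is a description of the letters in this window.

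The tissues differed in some of the members they expressed and shared others. Apol6 was the most abundant member of WT and NL skin, and its counts in the 12 node libraries were 0 to 2. Apol8 had 38 to 619 counts in skin and 0 to 5 in nodes. Apol7e was the reverse, with 0 to 8 counts in skin and 141 to 434 in nodes. Apol9a, Apol9b and Apol10b were counted in both tissues, and Apol7c was near the floor in skin (2 to 19 counts) and above it in nodes (16 to 146). The 2 tissues were tabled separately, so these levels are set side by side without a test. The filter on low counts kept 6 members in skin, all but Apol7e, and 5 in nodes, all but Apol6 and Apol8.

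Scaled to exon length, the order of levels in WT skin was led by Apol6 at 17.1 ± 1.90 CPM per kb (SD, n = 3), whose libraries did not overlap those of any other member. Apol9b followed at 1.28 CPM per kb, Apol9a at 0.645 and Apol8 at 0.362, and neighbours among these 3 overlapped between libraries. Apol10b at 0.121, Apol7c at 0.0898 and Apol7e at 0.0137 CPM per kb closed the order. In L skin Apol9b led at 11.0 CPM per kb, ahead of Apol6 at 6.09, Apol9a at 4.63 and Apol8 at 2.06, and each of these overlapped its neighbour. In nodes Apol7e and Apol9b headed every group and overlapped each other. They stood at 2.55 and 2.08 CPM per kb in untreated WT nodes and at 5.19 and 5.48 CPM per kb in TG nodes after UVB, while Apol10b, next after them in 3 of the 4 groups, lay at 1.02 to 1.16 CPM per kb in all 4.

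Lesional against WT skin asks how the inflamed skin of TG mice differs from that of mice without the transgene. Apol8, Apol9a and Apol9b were higher in L skin by 5.70-fold to 8.59-fold, and the other 3 tested members did not pass the test. Higher calls of edgeR's quasi-likelihood test at an adjusted p under 0.05 numbered 3 of 6 tested members, where 23.0% of the 19101 tested genes were called higher.

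Apol9a stood at 43.1, 23.2, 38.3 and 5.66 CPM in L replicates 4, 5, 6 and 7 and at 6.13, 3.85 and 1.53 CPM in WT replicates 8, 9 and 10. L replicates 4, 5 and 6 were far above all WT libraries, and L replicate 7 lay within them. The log2 fold change was 2.84 with an SE of 0.75 (edgeR adjusted p = 0.0176).

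Apol9b stood at 34.4, 15.4, 26.3 and 4.27 CPM in the same L libraries and at 4.56, 1.66 and 0.766 CPM in WT. The pattern was that of Apol9a, with L replicate 7 again inside the WT range. Its log2 fold change was 3.10 with an SE of 0.82 (edgeR adjusted p = 0.0176).

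Of the 151-base stretches of Apol9b transcripts, 22.2% also occur in Apol9a, so reads can be split between the copies. With the counts of both summed to 1 gene the log2 fold change was 2.95 (SE 0.78, edgeR adjusted p = 0.0171). Both calls were lost without WT replicate 9, with an adjusted p of 0.0578 for Apol9a and 0.0641 for Apol9b, and without WT replicate 10, with 0.0538 and 0.0503. Without WT replicate 8, the highest of its group for both, the log2 fold change of Apol9b was 4.04 (edgeR adjusted p = 0.0149).

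Apol8 stood at 11.3, 4.32, 6.12 and 2.76 CPM in L skin and at 1.28, 0.997 and 0.939 CPM in WT. Every L library was above every WT library. The log2 fold change was 2.51 with an SE of 0.47 (edgeR adjusted p = 0.00323), and the call was kept without any single library. None of the 151-base stretches of Apol8 transcripts occur in transcripts of another gene.

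Apol10b was low, at 1.04, 0.962, 3.96 and 0.414 CPM in L skin and 0.410, 0.261 and 0.173 CPM in WT. The groups did not overlap, by a narrow margin at L replicate 7, and the log2 fold change of 2.48 (SE 0.94) missed the threshold (edgeR adjusted p = 0.0618). Without L replicate 7 it was 2.80 (edgeR adjusted p = 0.0343). DESeq2 called it too, with an adjusted p of 0.0126. Without L replicate 6, the highest library, the log2 fold change was 1.5 (edgeR adjusted p = 0.163).

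Apol6 ran the other way. It stood at 36.3, 3.21, 31.7 and 38.3 CPM in L skin and at 86.6, 70.1 and 74.4 CPM in WT. All L libraries were below all WT libraries, and L replicate 5 was far below the rest of its group. The log2 fold change was -1.49 (SE 0.65, edgeR adjusted p = 0.0963). Without L replicate 5 it was -1.12, and then passed (edgeR adjusted p = 9e-04), as it did in DESeq2 (adjusted p = 0.0227).

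Mb, on the other strand of the same locus, stood at 322, 0.666, 18.8 and 35.4 CPM in L and at 559, 546 and 658 CPM in WT, lowest in the same L replicate 5. Whether counting used strand is not stated, and the part of Mb and of the muscle content in the Apol6 values was not tested. Nodes had 0 counts of Mb in all 12 libraries.

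Apol7c had 5 to 10 counts in L skin and 2 to 19 in WT, and its log2 fold change of -0.23 (SE 0.81) was within its error (edgeR adjusted p = 0.837). Apol7e had 1 to 8 counts in L, 0 to 4 in WT and 0 and 3 in NL skin and was not tested. Libraries of L and WT skin did not overlap for 3 of 6 tested members, where 49.4% of all tested genes did not overlap.

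**Figure D1:**
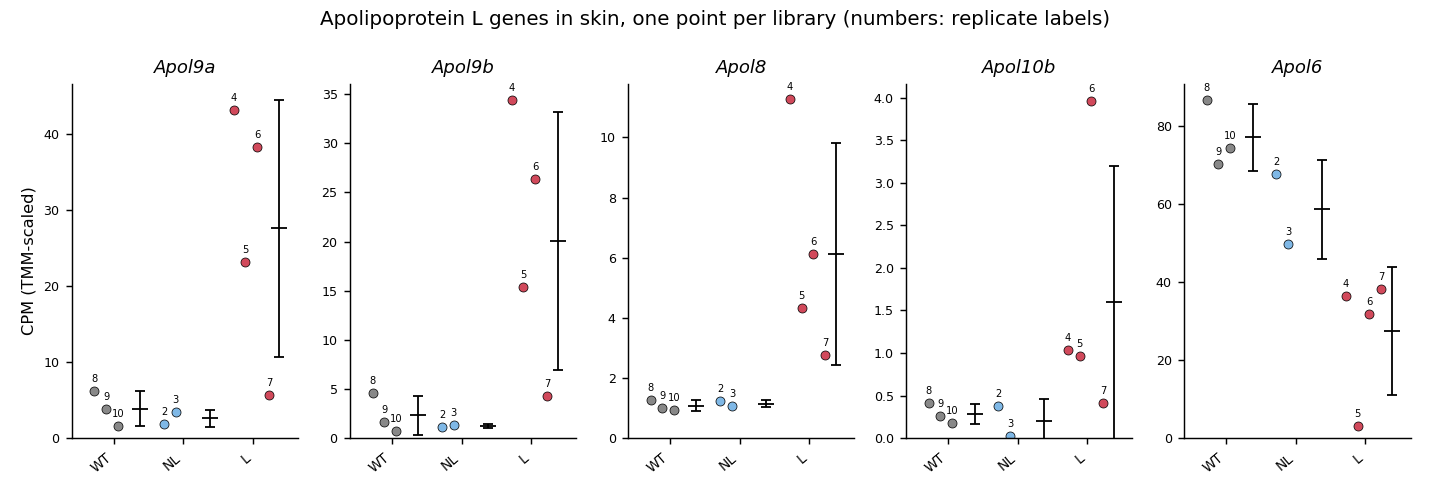
CPM after TMM scaling of 5 members in WT, nonlesional (NL) and lesional (L) skin, each point a library with its replicate number, bars the mean and SD, drawn no lower than 0. Apol9a, Apol9b, Apol8 and Apol10b were highest in L replicates 4, 5 and 6, L replicate 7 was the lowest L library for all 4 of them, and Apol6 was lowest in L replicate 5 at 3.21 CPM.

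Lesional against nonlesional skin sets 2 states of TG skin against each other. Apol8, Apol9a and Apol9b were called higher in L, and this comparison shares its L libraries with the one against WT. The called share was 3 of 6 tested members, where 13.2% of all tested genes were called higher. In NL replicates 2 and 3 Apol9a stood at 1.82 and 3.41 CPM, Apol9b at 1.09 and 1.35 CPM and Apol8 at 1.22 and 1.05 CPM. All 4 L libraries were above both NL libraries for each of these genes, L replicate 7 included.

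The log2 fold changes were 4.04 for Apol9b (SE 1.04, edgeR adjusted p = 0.0263) and 3.41 for Apol9a (SE 0.93, edgeR adjusted p = 0.0318). For Apol8 it was 2.42 (SE 0.55, edgeR adjusted p = 0.0145). Without NL replicate 2 or NL replicate 3 none of the 3 was called, with adjusted p between 0.0949 and 0.194. A single NL library is then left, which the fit assumes to vary like the other groups, and the log2 fold changes were 3.89 and 4.21 for Apol9b, 3.02 and 3.93 for Apol9a and 2.53 and 2.33 for Apol8. Apol9a was lost also without L replicate 6 (edgeR adjusted p = 0.053).

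Apol10b had 20 and 1 counts in NL skin and 23 to 180 in L, with a log2 fold change of 2.90 (SE 1.14, edgeR adjusted p = 0.0954). It was 5.87 without NL replicate 2, 2.06 without NL replicate 3 and 1.93 without L replicate 6, none of them called, and DESeq2 called it with all libraries (adjusted p = 0.0141). Apol6 stood at 67.6 and 49.6 CPM in NL, above all L libraries, with a log2 fold change of -1.10 (SE 0.71, edgeR adjusted p = 0.292). Without L replicate 5 it was -0.72 and passed (edgeR adjusted p = 0.0162). Libraries did not overlap for 5 of 6 tested members, against 49.4% of all tested genes.

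Nonlesional against WT skin asks what the transgene does without a lesion. No member was called by edgeR's test and none had an unadjusted p under 0.05, and 0% of all tested genes were called. DESeq2 called no member either. For Apol6 both NL libraries lay below all WT libraries, with a log2 fold change of -0.39 (SE 0.78). Log2 fold changes lay between -0.94 (SE 0.95) for Apol9b and 0.09 (SE 0.53) for Apol8. With 2 NL libraries the SE of these differences was 0.53 to 1.14 on the log2 scale.

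**Figure D2:**
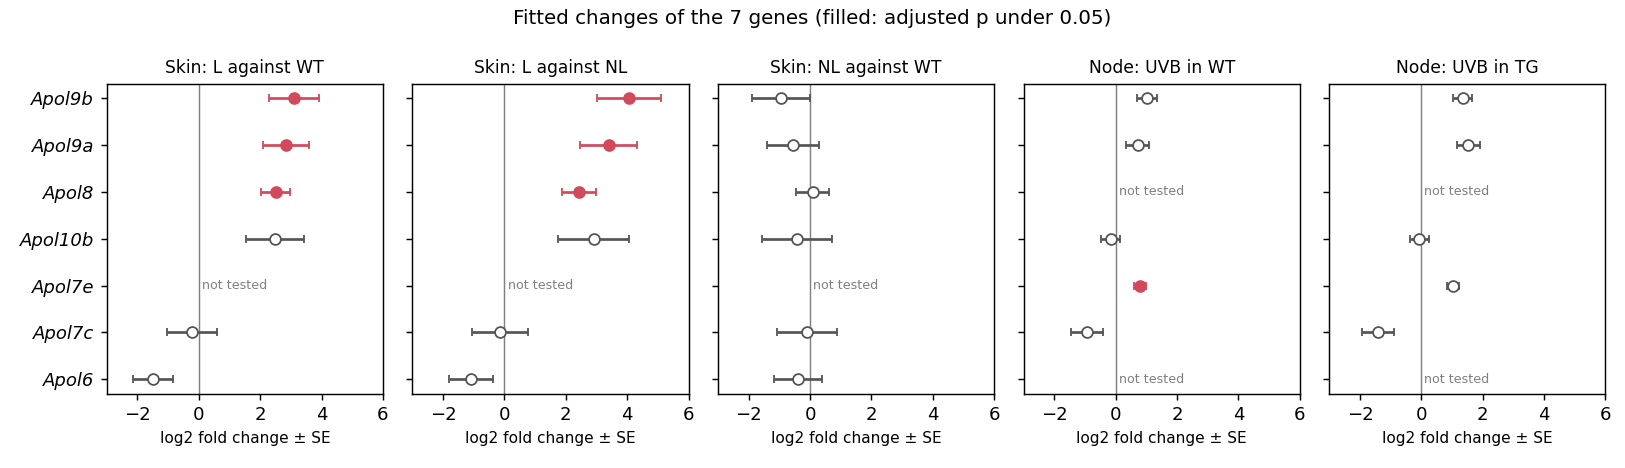
Fitted log2 fold change with its SE (bars) of the 7 members in 5 comparisons, filled where edgeR's adjusted p was under 0.05. In skin Apol9b, Apol9a and Apol8 were called in both comparisons with L skin and had values of -0.94 to 0.09 between NL and WT. In nodes Apol7e was called in WT mice after UVB, and its value was 1.03 in TG mice.

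Lists of interferon-induced genes were read by counts and medians, and no list was tested. In L against WT skin 11 of 17 guanylate-binding proteins and immunity-related GTPases, interferon-induced enzymes of defence within cells, were called higher and none lower, with a median log2 fold change of 1.93. Of the 32 type I interferon-stimulated genes 10 were called higher, with a median of 0.89, and of 12 interferon-gamma targets 7 were, with a median of 1.51. Over all tested genes 23.0% were called higher. The median over all tested genes was 0.06, and that of the 6 tested members 2.50. Isg15, a ubiquitin-like modifier and the first of the type I list, had a log2 fold change of 2.51 (SE 0.57, edgeR adjusted p = 0.00936), while Ifit1 and Ifit2, RNA-binding antiviral proteins, did not pass at 0.88 and 0.03. Gbp2b and Gbp3 rose by 2.23 and 1.57 on the log2 scale (edgeR adjusted p = 0.0346 and 0.0297), and Gbp2 did not pass at 1.48.

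Against NL skin 4 of these 17, 5 of the 32 and 3 of the 12 genes were called higher, beside 13.2% of all tested genes. The list medians were 2.26, 1.24 and 1.27, beside 2.66 for the tested members and 0.03 for all genes. Ifng, the gene of interferon-gamma, was among the called genes of L against WT skin (log2 fold change 4.67, SE 1.51, edgeR adjusted p = 0.0356). Of 12 NF-kB and TNF targets 4 were called higher against WT, beside 23.0% of all tested genes. Among them was Nfkbiz, a nuclear regulator of NF-kB, at 1.65 (SE 0.34, edgeR adjusted p = 0.00556). Nfkbia and Tnfaip3, both inhibitors of NF-kB, had values of -0.15 and 0.48 and did not pass. Against NL skin none of the 12 targets was called, at a median of 0.80. In NL against WT skin 11 of the 12 had positive values, with a median of 0.42 and none called.

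Of the other family genes 2 of 7 were tested in skin. Apol7a stood at 23.4, 10.1, 13.6 and 2.58 CPM in L and at 2.78, 1.5 and 1.19 CPM in WT, with a log2 fold change of 2.77 (SE 0.69, edgeR adjusted p = 0.0128). L replicate 7 was again within the WT range. The promoter table held no core of the response element for Apol7a in its 250 bases. Apold1, an endothelial gene listed with the family by its name, had a log2 fold change of -0.46 and did not pass.

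Some lists of immune cell markers moved with the called members and others did not, beside 23.0% of all tested genes called higher. Of the tested markers, 3 of 5 neutrophil and 3 of 6 T cell genes were called higher in L against WT skin, with medians of 3.09 and 1.37. Of 8 markers of mature migratory dendritic cells 6 were called higher, with a median of 1.85, and the mean log2 CPM of that list was 1.97 to 2.68 in L and 0.355 to 0.566 in WT libraries, with 0.71 and 0.636 in NL. Markers of conventional type 1 dendritic cells, 3 of 6 called, had means of 2.19 to 2.75 in L and 1.53 to 1.87 in WT. Of 8 macrophage markers none was called higher and 1 lower, with a median of -0.66. Of the skeletal muscle markers 2 of 6 and of the blood endothelium markers 3 of 5 were called lower. Against NL skin 3 of 5 neutrophil, 1 of 6 T cell and 3 of 8 mature migratory dendritic markers were called higher. None of the 6 type 1 dendritic markers was, where 13.2% of all tested genes were called higher. Macrophage markers had a median of 0.08 there and of -0.77 in NL against WT skin, with none called. No skeletal muscle marker and 1 of 5 blood endothelium markers were called lower against NL skin. The part of cell numbers in the member values was not tested.

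The 3 genes most like each member over the 9 skin libraries were ranked by Pearson's r of log2 CPM, which takes in the difference between L and other skin. Apol9a was closest to Apol9b (r = 0.99), Xaf1 (0.98) and Oas1g (0.98), and Apol9b to Apol9a, Xaf1 and Oas1g (0.99, 0.97 and 0.97). Xaf1 is an interferon-induced gene of cell death and Oas1g encodes an RNA-sensing synthetase. Apol8 was closest to Fam162a, Gsto1 and Cd300c2 (r = 0.99, 0.99 and 0.98). Apol10b was closest to Glmp, Irf8 and AW112010 (0.96, 0.95 and 0.93). Of these, Irf8 is a transcription factor of dendritic cells and also belongs to the list of interferon-gamma targets. Apol6 was closest to Adhfe1, Plin1 and Pyroxd2 (0.99, 0.99 and 0.98), Plin1 being a coat protein of fat droplets. The counts of Apol7c were too few for its likeness to Zfp36, Ier2 and Btg2 (r = 0.91 to 0.93) to be read.

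In lymph nodes the question was what UVB on the skin changes in the draining tissue. After UVB in WT mice Apol7e was 1.73-fold higher, and it was the only one of the 5 tested members called. Higher calls took up 2.92% of the 16173 tested genes. Apol9a and Apol9b did not pass, with values in the same direction, and Apol10b and Apol7c did not pass either.

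Apol7e stood at 9.00, 11.0 and 11.8 CPM in irradiated WT replicates 7, 8 and 9 and at 6.66, 7.46 and 4.33 CPM in untreated WT replicates 1, 2 and 3. All irradiated libraries were above all untreated ones. The log2 fold change was 0.79 (SE 0.19, edgeR adjusted p = 0.0364). The call was lost without untreated replicate 1 (adjusted p = 0.0686) or 3 (0.141) and without irradiated replicate 8 (0.154) or 9 (0.108).

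Apol9b stood at 7.02, 6.90 and 9.19 CPM after UVB and at 5.19, 3.17 and 3.01 CPM without it in WT nodes. The groups did not overlap. Its log2 fold change of 1.02 (SE 0.32) had an edgeR adjusted p of 0.0759, and DESeq2 called it (adjusted p = 0.0191). Apol9a stood at 3.48, 3.96 and 5.64 CPM against 2.99, 3.17 and 1.81 CPM, again without overlap, with a log2 fold change of 0.72 (SE 0.37, edgeR adjusted p = 0.238). Of the 5 tested members 3 did not overlap, where 37.1% of all tested genes did not.

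Apol7c stood at 0.870, 0.981 and 0.827 CPM after UVB and at 2.38, 1.82 and 0.920 CPM without it, an overlap of the groups at untreated replicate 3. Its log2 fold change was -0.93 (SE 0.53, edgeR adjusted p = 0.276). Apol10b was flat at 2.7, 1.96 and 2.57 CPM against 3.26, 3.01 and 1.81 CPM, with a log2 fold change of -0.16 (SE 0.31, edgeR adjusted p = 0.791).

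In TG nodes the same 3 members were higher in every irradiated library, and none was called by edgeR, whose test called 0% of all genes there. Apol7e stood at 12.6, 13.7 and 11.3 CPM in irradiated TG replicates 10, 11 and 12 and at 5.94, 6.04 and 6.45 CPM in untreated replicates 4, 5 and 6. The distance between the groups was larger than their ranges, and the log2 fold change was 1.03 (SE 0.19, edgeR adjusted p = 0.154). Its unadjusted p was 8.21e-05.

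Apol9b stood at 6.13, 8.21 and 15.6 CPM after UVB and at 4.67, 3.66 and 3.46 CPM without it, with a log2 fold change of 1.34 (SE 0.32, edgeR adjusted p = 0.217). Apol9a stood at 4.71, 3.37 and 9.66 CPM against 2.13, 2.58 and 1.44 CPM, with 1.53 (SE 0.38, edgeR adjusted p = 0.226). Irradiated replicate 12 was the highest library for both copies and the lowest of its group for Apol7e. Of the 5 tested members 4 had an unadjusted p under 0.05, as had 1507 of all 16173 tested genes, and 3 did not overlap, where 13.3% of all tested genes did not. DESeq2 called 3 members, Apol7e, Apol9a and Apol9b, among 118 genes in all, and without replicate 12 edgeR called Apol7e (adjusted p = 0.0264).

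Apol7c stood at 1.57, 0.556 and 0.489 CPM in irradiated and at 1.40, 4.14 and 1.5 CPM in untreated TG nodes, with a log2 fold change of -1.41 (SE 0.53, edgeR adjusted p = 0.441). It was -0.74 without untreated replicate 5 and -2.16 without irradiated replicate 10. Apol10b stood at 2.15, 2.30 and 2.69 CPM against 1.89, 3.71 and 1.87 CPM. Its log2 fold change was -0.07 (SE 0.31, edgeR adjusted p = 0.965).

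**Figure D3:**
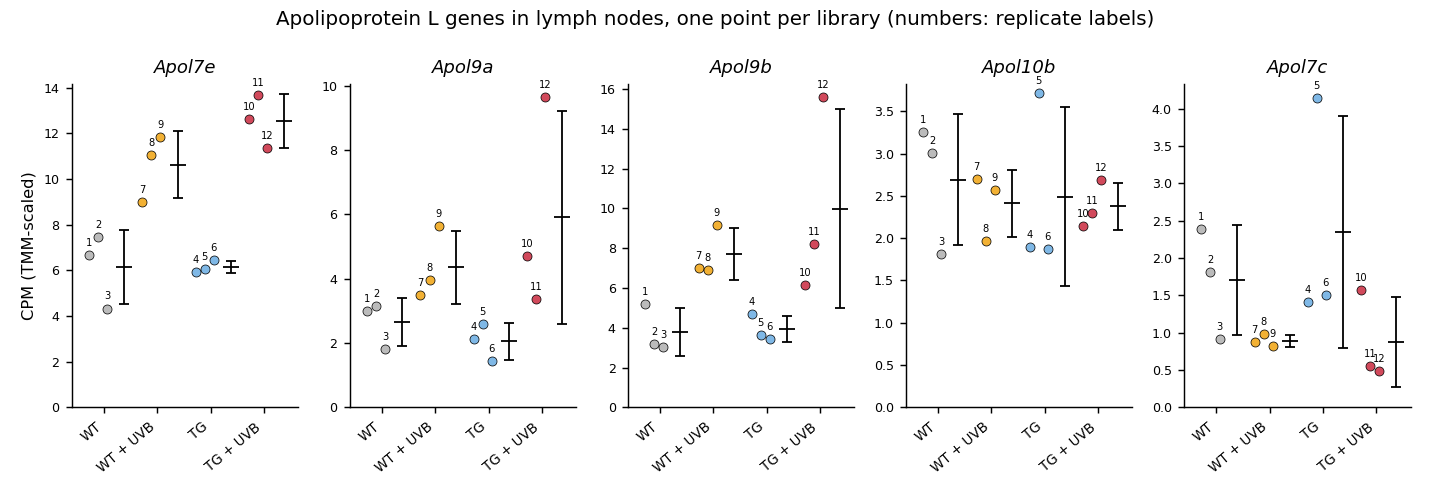
CPM after TMM scaling of the 5 tested members in the 4 groups of lymph node libraries, each point a library with its replicate number, bars the mean and SD. Irradiated libraries were above untreated ones for Apol7e, Apol9a and Apol9b in both genotypes, and the groups overlapped for Apol10b and Apol7c.

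Averaged over both genotypes, a contrast chosen after the values were seen, Apol7e was higher after UVB by 0.91 on the log2 scale (SE 0.13, edgeR adjusted p = 0.00559). Apol9b was higher by 1.18 (SE 0.22, edgeR adjusted p = 0.0144) and Apol9a by 1.12 (SE 0.27, edgeR adjusted p = 0.0249). These were 3 of 5 tested members, where 4.81% of all tested genes were called higher. Apol7e and Apol9b stayed called without any single library, and Apol9a was lost without any of 5 of the 12 libraries, untreated TG replicates 4 and 6, untreated WT replicate 3 or irradiated WT replicates 8 and 9, with adjusted p between 0.0584 and 0.0708. All 6 irradiated libraries were above all 6 untreated ones for each of the 3 genes, which 3.52% of tested genes showed in either direction. For Apol7e the irradiated libraries ran from 9.00 to 13.7 CPM with a median of 11.6, and the untreated ones from 4.33 to 7.46 with a median of 6.25. Apol7c had a value of -1.17 (SE 0.37, edgeR adjusted p = 0.0655). It was called by DESeq2 (adjusted p = 0.0226) and by edgeR without irradiated TG replicate 10 (adjusted p = 0.0339).

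Apol7e shares 44% of the 151-base stretches of its transcripts with Apol7b, so its counts and those of the copy cannot be kept fully apart. Apol7b, tested in nodes, stood at 2.82, 3.23 and 3.95 CPM after UVB against 1.66, 3.38 and 1.23 CPM in WT and at 4.04, 4.31 and 3.33 CPM against 2.21, 1.87 and 1.76 CPM in TG mice. Its log2 fold changes of 0.67 (SE 0.32) and 1.00 (SE 0.32) did not pass (edgeR adjusted p = 0.197 and 0.364). Apol7e made up 68.8% to 80.1% of the summed counts of both. The sum had a log2 fold change of 0.76 in WT mice (SE 0.20, edgeR adjusted p = 0.045) and of 1.02 in TG mice (SE 0.20, edgeR adjusted p = 0.155). The annotation also places an antisense gene and pseudogenes within the Apol7e locus.

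TG against WT nodes asks what the skin transgene changes in the node. No member was called, in untreated mice or after UVB, where 0% of all tested genes were called in each, and none had an unadjusted p under 0.05. DESeq2 called no member in either. Apol7e differed by 0.00 (SE 0.19) in untreated mice and by 0.24 (SE 0.18) after UVB. Apol9a differed by -0.37 (SE 0.38) and 0.44 (SE 0.37), and Apol9b by 0.05 (SE 0.32) and 0.37 (SE 0.31).

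The interaction tests whether UVB changed TG nodes more than WT nodes. No member was called (0% of all tested genes), none had an unadjusted p under 0.05, and DESeq2 called none. The difference of the UVB effects was 0.81 (SE 0.53) for Apol9a, 0.32 (SE 0.45) for Apol9b and 0.24 (SE 0.26) for Apol7e. A call of Apol7e in WT and not in TG mice is therefore not a difference shown between the genotypes.

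Lists of interferon-induced genes were read in the nodes by counts and medians too. In WT mice after UVB 31 of the 32 type I interferon-stimulated genes had negative values, none was called, and their median was -0.97, while 16 of the 17 guanylate-binding proteins and GTPases had positive values, 4 were called higher and the median was 0.46. Over all tested genes 2.92% were called higher. The median of the 5 tested members was 0.72 and that of all genes 0.00. Isg15, Ifit1 and Ifit2 stood at -1.86, -2.40 and -0.89 and did not pass. Gbp2b and Gbp3 rose by 0.63 and 0.56 (edgeR adjusted p = 0.032 and 0.0278), and Gbp2 did not pass at 0.46. Ifng was higher by 1.51 (SE 0.35, edgeR adjusted p = 0.0343). Of 11 tested interferon-gamma targets 2 were called higher, with a median of 0.04.

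In TG mice all 32 and all 17 genes of these lists had positive values, with medians of 1.26 and 0.88, and none was called. The interferon-gamma targets had a median of 0.20 there with none called. Between untreated TG and WT nodes none of the 32 type I genes had a positive value, with a median of -1.48. For the interaction all 32 had positive values, with a median of 2.28, and none was called in either comparison. The type I list varied widely among libraries of a group. Its mean log2 CPM was 4.91, 6.47 and 5.80 in untreated WT nodes, 4.28, 4.21 and 4.07 in untreated TG, 4.00, 4.31 and 5.49 in irradiated WT and 4.60, 6.37 and 5.22 in irradiated TG nodes. Untreated WT replicate 2, with the highest mean of that list, had 7.46 CPM of Apol7e. Irradiated WT replicate 7, with the lowest, had 9.00 CPM, but these libraries differ in UVB. Within irradiated WT nodes Apol7e rose in the order of the list means. The library highest for the list was also highest for Apol7e in untreated WT and in irradiated TG nodes. In untreated TG nodes the order of Apol7e was the reverse of that of the list. With 3 libraries in each group these orders were not tested. The list of guanylate-binding proteins and GTPases had means of 6.01 to 6.97 in untreated and 6.89 to 7.31 in irradiated nodes.

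**Figure D4:**
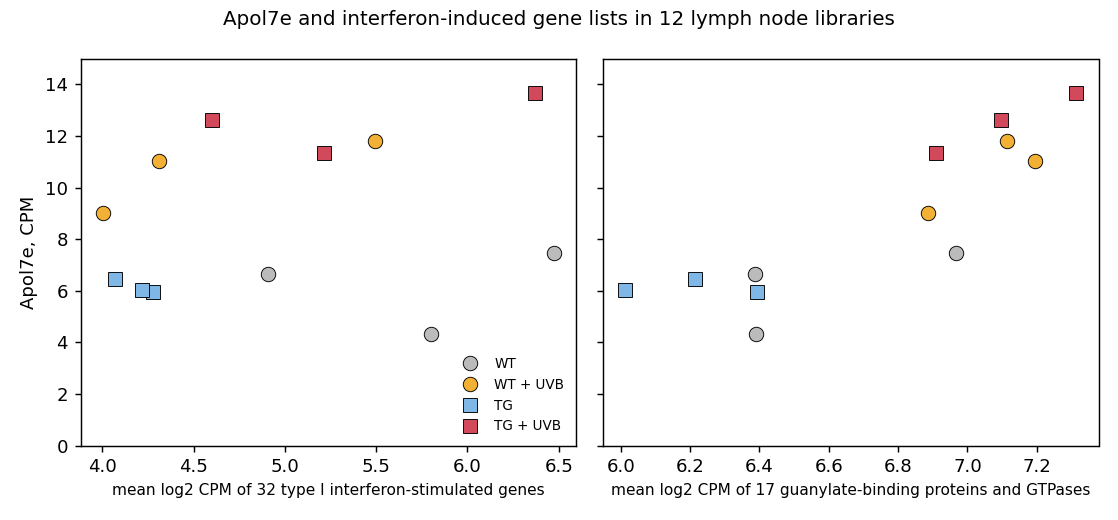
Apol7e in CPM (vertical axis) against the mean log2 CPM of 32 type I interferon-stimulated genes (left) and of 17 guanylate-binding proteins and immunity-related GTPases (right) in the 12 lymph node libraries, coloured by group. The 6 irradiated libraries had 9.00 to 13.7 CPM of Apol7e at means of the type I list from 4.00 to 6.37. For the other list they had means of 6.89 or more, and the untreated libraries, at 6.01 to 6.97, overlapped them.

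Over the 12 node libraries, which differ by UVB and genotype, the genes most like Apol7e were Iigp1 (r = 0.95), Tfdp1 (0.93) and its copy Apol7b (0.93). Iigp1 is an immunity-related GTPase induced by interferon-gamma. Apol9b was most like Cxcr3, the receptor of interferon-induced chemokines, Pmepa1 and Socs1, an inhibitor of cytokine signalling (r = 0.96, 0.95 and 0.95). Apol9a was most like Mrpl42, Apol9b and Ints11 (0.87 each). Apol7c was most like H2-M2, Cd33 and Cxcl16 (0.95, 0.94 and 0.91). Apol10b was most like Plcl1, Xcr1 and Serpinb6b (0.81, 0.80 and 0.79), Xcr1 being a chemokine receptor of type 1 dendritic cells.

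Cell markers of the nodes were read beside these values. In WT mice after UVB 3 of 5 erythroid markers were called lower, with a median of -2.98. Of the 8 genes listed as mature dendritic markers 1 was called lower. It was Ccr7, the receptor that guides cells to nodes, which fell by 0.43 (edgeR adjusted p = 0.0261). That list had a median of -0.12, with 3 of 8 values positive. The cells that the Ccr7 RNA came from cannot be told in bulk tissue. Of 6 markers of conventional type 1 dendritic cells 1 was called higher, with a median of 0.21. T cell markers had a median of -0.18 with none called. Of the blood endothelium markers 1 of 5 was called lower, with a median of -0.58. None of the 5 tested fibroblast and 5 tested neutrophil markers was called, with all values negative and medians of -1.26 and -1.40. In TG mice no marker was called, and the erythroid, fibroblast and neutrophil lists had medians of -1.48, -0.90 and -0.69, again with all values negative. The part of any of these in the values of Apol7e, Apol9a and Apol9b was not tested.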

How the data were processed

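The authors trimmed paired reads of poly-A libraries with cutadapt 4.8, checked them with FastQC 0.11.8 and MultiQC 1.20, aligned them to GRCm38 with STAR 2.7.8a and deposited expected counts per gene from RSEM 1.3.3, 1 table per tissue, without normalization. The annotation release and the use of strand are not given in the sources used here. All columns of both tables were used. The table rows of 4 reporter genes, with 0 counts, were left out.

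Expected counts were rounded and analysed in R 4.3.3 with edgeR 4.0.16 (filterByExpr with a minimum of 10 counts and 15 in total, TMM, robust quasi-likelihood fit of all libraries of a tissue by group, F-test). P-values were adjusted by Benjamini and Hochberg's method across every tested gene, a call needs less than 0.05, and an SE is the log2 fold change over the root of F. The methods of the study used DESeq2, which was an alternative here (1.42.0). The fits were tested on simulated data in which 200 genes changed. The floor of 3 counts, 5.31e-06% to 1.09e-05% of a library, covers counting error only, since reads carry no molecular identifiers. Exon lengths, positions and transcript stretches came from GENCODE M21 and promoters from RefSeq.

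The members and lists were chosen with earlier results of these data known. All 7 members were named in every comparison, other family genes where tested, at most the first 3 genes of a list (Ifng, Nfkbiz and marker genes included under that rule), and the 3 genes most like each member with a mean log2 CPM of at least 1. Krt5, Cd3e and Mb were added to check tissue and overlap. A further marker is not reported here. Alternatives were DESeq2, RLE scaling, no filter, the compared groups alone, no robust estimation, keratin genes left out, each library left out and copies summed. Protein sequences were not analysed here.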

Additional observations from a re-analysis of the deposited data

How the results depend on the processing

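No paired analysis was possible because the labels do not say which libraries, if any, came from the same mouse. The sample numbers name libraries and not mice. The direction of Apol8, Apol9a and Apol9b in L skin and of Apol7e, Apol9a and Apol9b after UVB in each genotype was the same under every alternative run, leaving out each library included. RLE scaling and no robust estimation kept the number of called members in all comparisons, as did leaving out keratin genes in the 3 skin comparisons, where it was run. DESeq2 called 5 members in L against WT skin (3 with edgeR), 2 in WT nodes after UVB (1) and 3 in TG nodes after UVB (0). In L against NL skin 3 members were called, against 4 with DESeq2, 1 without a filter on low counts and 2 with these groups alone, where Apol9a was lost (edgeR adjusted p = 0.0523), and a fit of WT node groups alone called 2 after UVB (1). With each library left out in turn, called members ranged from 1 to 4 in L against WT skin, from 0 to 4 in L against NL, from 0 to 1 in both UVB comparisons and from 2 to 4 over both genotypes, and stayed at 0 in the others. The causes were not tested. Calls over all genes moved too. In WT nodes after UVB they numbered 805, against 1944 with DESeq2, 2431 with these groups alone and 0 to 493 with a library left out. In L against NL skin they numbered 4782, against 3156 with these groups alone and 1182 to 5187 with a library left out. In TG nodes after UVB they were 0, against 118 with DESeq2 and up to 236 with a library left out, in NL against WT skin 0 against 63 with DESeq2, and over both genotypes 1393 against 2380 with DESeq2 and 373 to 3790 with a library left out. Leaving out keratin genes turned the split of higher and lower calls in L against WT skin from 4386 and 3851 to 3844 and 4259.

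Between untreated TG and WT nodes Apol7e was 0.00476 with DESeq2, 0.00546 with RLE and 0.00585 without a filter, and Apol9b was -0.11 with the copies summed.
With each library left out in turn, the sign also changed for these log2 fold changes. Apol10b ranged from -0.24 to 0.33 for UVB in TG nodes, from -0.23 to 0.077 for UVB over both genotypes, from -0.52 to 0.056 for TG against WT untreated, from -0.15 to 0.069 for TG against WT after UVB, from -0.064 to 0.51 for the interaction and from -3.39 to 0.41 for NL against WT skin. Apol7c ranged from -0.24 to 0.77, from -0.75 to 0.27 and from -1.20 to 0.22 for TG against WT untreated, after UVB and the interaction, and from -0.69 to 1.34, from -0.74 to 1.08 and from -1.31 to 1.48 for L against WT, L against NL and NL against WT skin. Apol7e ranged from -0.20 to 0.16 for TG against WT untreated, and Apol8 from -0.023 to 0.23 for NL against WT skin. For TG against WT after UVB Apol9a ranged from -0.11 to 0.74 and Apol9b from -0.10 to 0.66. Apol9b ranged from -0.10 to 0.34 for TG against WT untreated and from -0.15 to 0.61 for the interaction. None of these comparisons had a call of the gene.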

Other observations

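The split of counts between Apol9a and its copy Apol9b differed by tissue. Apol9a took 55.7% to 71.6% of the summed counts of both in the 9 skin libraries, with a median of 60.2%, and 29.1% to 50% in the 12 node libraries, with a median of 37.1%. The ranges did not overlap. Merged exons of Apol9a span 5.95 kb and those of Apol9b 1.82 kb, and 7.02% of the 151-base stretches of Apol9a transcripts occur in Apol9b, so the estimate of each copy depends on how RSEM shared reads among isoforms, which was not tested.

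The 2 copies also parted within the nodes. In irradiated TG nodes Apol9a was lowest in replicate 11 at 3.37 CPM, where Apol9b at 8.21 CPM was the middle library, and in untreated WT replicate 2 both stood at 3.17 CPM, with 101 counts each.

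Of the 7 other genes of the family by name, 1 was tested in nodes, Apol7b, and 2 in skin. Apol10a, Apol11a and Apol11b each held a single core of the interferon-stimulated response element in the 250 bases before the start, and none of the 3 passed the filter on low counts in either tissue.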
